A study of Homo sapiens with 10 samples.

Results

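The genes described here are 8 genes of the luminal lineage of breast epithelium, ESR1, PGR, GATA3, FOXA1, TFF1, SPDEF, XBP1 and AGR2, in MDAMB231 cells. They were chosen by name, for their known roles in luminal cells, out of 20098 protein-coding genes on chromosomes 1 to 22 and X. Earlier results of these data were known when the choice was made. MDAMB231 is a human breast cancer line that lacks the oestrogen and progesterone receptors and HER2, a triple-negative line with a mesenchymal character. No treatment of the cells is given, and they were grown in DMEM with 5% FBS.

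The study mapped chromatin in this line by FAIRE-seq, which recovers nucleosome-depleted DNA, and by ChIP-seq for the histone marks H3K4me3, H3K27Ac and H3K4me1. There were 2 FAIRE samples with 1 input sample, and 2 ChIP samples for each mark with 1 input sample. The 2 samples of an assay were combined into a single list of peaks, so no replicate error can be given for any value. The lists hold no read counts, so the depth behind each peak is unknown from them. A peak in all cells and a peak in a fraction of the cells cannot be told apart.

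In luminal cells, the oestrogen receptor ESR1 acts together with FOXA1, a factor that opens chromatin, and GATA3, and the progesterone receptor PGR and TFF1 are classical oestrogen-induced genes. H3K4me3 marks promoters, also many that are not in use, whereas H3K27Ac marks active promoters and enhancers and H3K4me1 is found mostly at enhancers. The question was which luminal promoters had no peak of any list in a triple-negative line and which had some. No luminal line was analysed here for comparison.

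A promoter was any annotated start site of the gene with 1 kb on each side, and it was marked when at least 1 base was shared with a peak. It was called silent when no peak of the 4 lists was there. By this rule, 0 of the 8 promoters were silent, beside 29.3% of all protein-coding genes. H3K4me3 was present at 7 of the 8 promoters, beside 67.3% of all genes. TFF1 was the exception. H3K27Ac was present at 5 of the 8 promoters (GATA3, TFF1, SPDEF, XBP1 and AGR2), beside 63.5% of all genes. FAIRE peaks were present at 4 (FOXA1, TFF1, XBP1 and AGR2), beside 39.3%, and an H3K4me1 peak at 1 (TFF1), beside 20%. Counting only FAIRE peaks no lower than the list's median height (61.1) left 2 (TFF1 and AGR2), beside 24.4%.

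The 8 promoters fell into 3 states. GATA3, SPDEF, XBP1 and AGR2 had both H3K4me3 and H3K27Ac, the form of an active promoter, which 61.3% of all genes had. ESR1, PGR and FOXA1 had H3K4me3 without H3K27Ac, a state found at 6.05% of all genes. TFF1 had other peaks but no H3K4me3, as did 3.38% of all genes. GATA3 belongs to the first group through an upstream start site only. With the canonical start site alone, its promoter was silent, as were 32.8% of all promoters read that way.

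**Figure D1:**
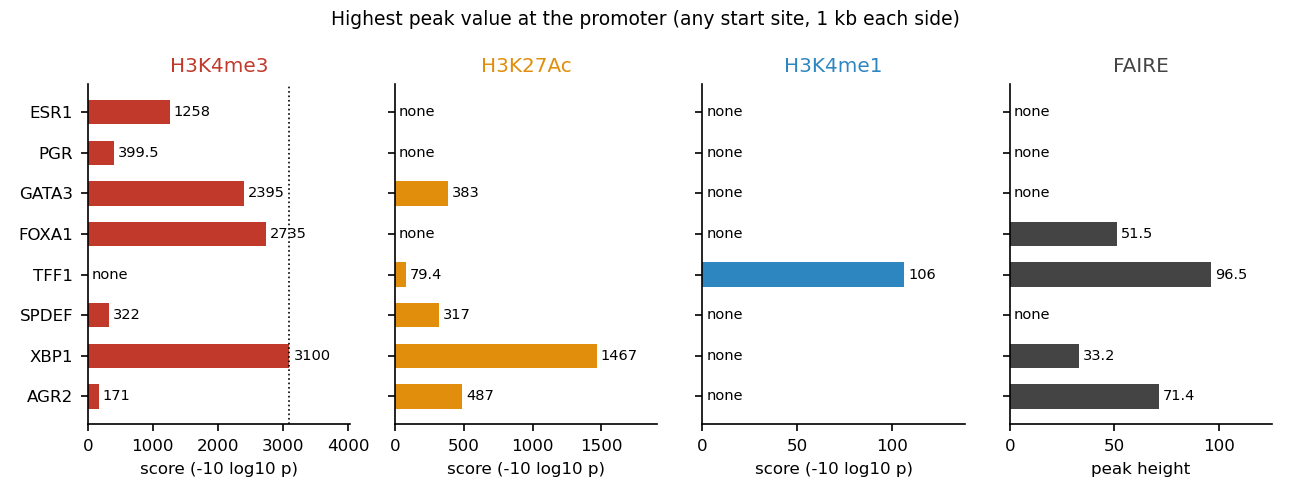
The bars give, for each gene, the highest score (minus 10 times the log10 of the p-value) of an H3K4me3, H3K27Ac or H3K4me1 peak at the promoter, or the highest FAIRE peak height, each on its own axis. The dotted line is the score of 3100, at which most of the strongest H3K4me3 and H3K27Ac peaks stand. Among these genes only XBP1 reached it for H3K4me3.

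The ChIP peaks carry the score given by the peak caller, minus 10 times the log10 of the p-value. In the H3K4me3 and H3K27Ac lists, most of the strongest peaks stand at 3100, so they cannot be ranked among themselves. The highest H3K4me1 score was 2123. Of the 13532 genes with promoter H3K4me3, 81.8% reached 3100 or more. Among the 7 marked luminal genes only XBP1 did, and their median score was 1260. The other 6 scored from 171 for AGR2 to 2735 for FOXA1. The FOXA1 score was above that of 15.6% of the marked genes, and the AGR2 score above that of 1.76%. For H3K27Ac, the scores of TFF1, SPDEF, GATA3 and AGR2 were above those of 1.76%, 10.8%, 13.3% and 17.4% of the genes with promoter H3K27Ac. The XBP1 score was above that of 53.5% of them.

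The ESR1 gene (ENSG00000091831), which encodes oestrogen receptor alpha, lies on the plus strand of chromosome 6 from 151977826 to 152450754 (GRCh37) and has 12 annotated start sites. A single H3K4me3 peak (152128652 to 152130516, score 1258) covered the canonical start site at 152128817. It began 165 bp upstream of that site and was centred in the first intron of the canonical transcript. It met no peak of the other 3 lists. The nearest H3K27Ac peak to any ESR1 start site was 3.91 kb away and the nearest FAIRE peak 11.9 kb away. From the canonical start site these distances were 42.7 kb and 41.1 kb.

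A second H3K4me3 peak lay inside ESR1, from 152084089 to 152086305, with a score of 563. It was 43.6 kb upstream of the canonical start site, in an intron of longer transcripts, with no annotated start site within 1 kb. Unlike the promoter peak, it met an H3K27Ac peak (score 90.9) and a FAIRE peak (height 48.0). Of the 17994 H3K4me3 peaks on chromosomes 1 to 22 and X, 20.6% had no start site within 1 kb.

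The 3′ end of ESR1 held a group of peaks. In the last intron of the canonical transcript, the H3K27Ac peak at 152415300 to 152417313 scored 299 and met an H3K4me1 peak with a score of 97.0. The FAIRE peak there had a height of 101, above 85.8% of the FAIRE list. This site is 287 kb downstream of the canonical start site, and the start of a non-coding gene (ENSG00000287914) lies within 1 kb of the H3K27Ac peak. In all, the ESR1 window of 573 kb held 2 H3K4me3, 7 H3K27Ac, 4 H3K4me1 and 10 FAIRE peaks.

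The PGR gene (ENSG00000082175), which encodes the progesterone receptor, lies on the minus strand of chromosome 11 from 100900355 to 101000544. Its window held a single peak of any list. This H3K4me3 peak spanned 100997605 to 101001114, scored 399.5 and covered the canonical start site at 101000544 and also the promoter of the antisense gene PGR-AS1. The peak was 3510 bp wide, against a median of 2524 bp for the list, but its score exceeded that of only 3.58% of the marked genes. The nearest H3K27Ac peak was 121 kb from the nearest PGR start site and the nearest FAIRE peak 118 kb. From the canonical start site these distances were 199 kb and 197 kb. Only 1.81% of all genes had H3K4me3 and none of the other lists in a window of this kind.

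ESR1 and PGR shared the same pattern at the promoter, H3K4me3 alone, with 995 genes in all (4.95%).

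FOXA1 (ENSG00000129514) encodes a forkhead factor that binds closed chromatin and prepares it for the oestrogen receptor. It lies on the minus strand of chromosome 14 from 38058757 to 38065264. The H3K4me3 peak at its promoter (38062916 to 38066167, score 2735) also covered a start site of the neighbouring gene TTC6 on the other strand, so the mark cannot be assigned to FOXA1 alone. A FAIRE peak from 38063222 to 38064104 (height 51.5) lay inside it, starting 350 bp downstream of the canonical start site at 38064454. This pattern of H3K4me3 and FAIRE without the other marks was found at 148 genes (0.736%).

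The FOXA1 window held 4 H3K4me3 peaks and no H3K27Ac or H3K4me1 peak. The strongest (38051873 to 38054144, score 2750) lay 11.4 kb downstream of the canonical start site, outside the gene and with no annotated start site within 1 kb. On chromosomes 1 to 22 and X, 344 H3K4me3 peaks had a score of 2000 or more and no start site within 1 kb, and 33 of them (9.59%) met no H3K27Ac peak. The nearest H3K27Ac peak to a FOXA1 start site was 395 kb away, at the promoter of MIPOL1. Promoter H3K4me3 with no H3K27Ac or H3K4me1 peak in the window was found at 246 genes (1.22%), PGR and FOXA1 among them.

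**Figure D2:**
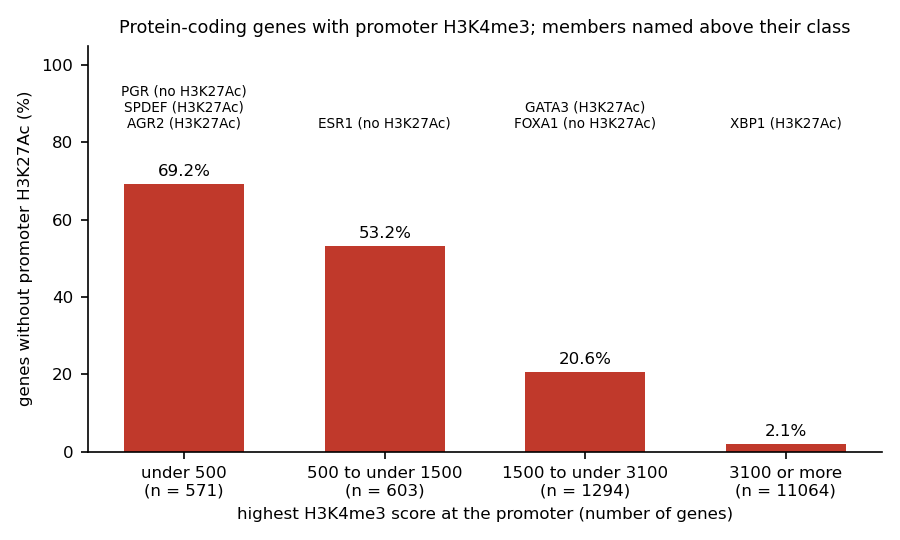
The bars give the share of protein-coding genes with promoter H3K4me3 that had no H3K27Ac peak there, in 4 classes of H3K4me3 score. The share falls from 69.2% under 500 to 2.1% at 3100 or more, and the luminal genes are named above their class.

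Absence of H3K27Ac went with weaker H3K4me3 across the genome. Of all genes with promoter H3K4me3, 8.98% lacked H3K27Ac. The share was 69.2% at scores under 500, where PGR lies, and 53.2% from 500 to under 1500, where ESR1 lies. It was 20.6% from 1500 to under 3100, the class of FOXA1 and GATA3, and 2.1% at 3100 or more. SPDEF and AGR2, in the class under 500, carried H3K27Ac. What part the strength of the H3K4me3 peak plays in the state of the luminal genes was not tested.

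GATA3 (ENSG00000107485) encodes a zinc finger factor needed for luminal differentiation. It lies on the plus strand of chromosome 10 from 8087341 to 8117161 and has 5 annotated start sites. The canonical start site at 8096651 had no peak of any list within 1 kb. The start site at 8087341, 9310 bp upstream, carried H3K4me3 (8086409 to 8089177, score 2395) and H3K27Ac (8086357 to 8089003, score 383). The nearest H3K4me3 peak was thus 7.47 kb from the canonical start site. The start sites at 8095567, 8096773 and 8100362 had no peak either.

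Strong acetylation lay in the 3′ part of GATA3. The H3K27Ac peak at 8109685 to 8114757, centred in the last intron 15.6 kb downstream of the canonical start site, reached the score of 3100 and met 2 FAIRE peaks with heights of 69.3 and 41.9. A neighbouring H3K27Ac peak (8106135 to 8109320) scored 576 and met a FAIRE peak with a height of 53.0. No H3K4me1 peak was found in the window, and the nearest was 71.4 kb from a start site.

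SPDEF (ENSG00000124664) encodes an ETS factor of luminal and secretory epithelia. It lies on the minus strand of chromosome 6 from 34505579 to 34524110. Its promoter had an H3K4me3 peak from 34521773 to 34524646 (score 322) and an H3K27Ac peak from 34521599 to 34525093 (score 317), with neither FAIRE nor H3K4me1. Flanking peaks combined the other marks. At 3 places, 10.5 kb downstream and 4.54 kb and 46.2 kb upstream of the canonical start site, an H3K27Ac peak met both an H3K4me1 and a FAIRE peak. Their H3K27Ac scores were 810, 879 and 136, and the FAIRE peak at the middle place had a height of 103. The farthest of these places lies inside the neighbouring gene ILRUN.

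XBP1 (ENSG00000100219) encodes a factor of the unfolded protein response that secretory cells of many kinds use. It lies on the minus strand of chromosome 22 from 29190543 to 29196585. Its promoter had the highest H3K4me3 and H3K27Ac scores of the 8. The H3K4me3 peak from 29193786 to 29197905 stood at 3100, and the H3K27Ac peak from 29193831 to 29197809 scored 1467, above 53.5% of the genes with promoter H3K27Ac. The FAIRE peak from 29196348 to 29197034 was low, with a height of 33.2 that exceeded 3.29% of the genes with a promoter FAIRE peak. These peaks also lie at the start of a non-coding gene (ENSG00000226471). The remaining H3K4me3 and H3K27Ac peaks of the window were at the promoter of CCDC117.

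TFF1 (ENSG00000160182) encodes a secreted trefoil peptide and has a single start site, at 43786644 on the minus strand of chromosome 21, where the gene runs from 43782391 to 43786644. No H3K4me3 peak was found within 50 kb of the gene, and the nearest was 129 kb from the start site. The start site was covered instead by an H3K4me1 peak from 43785236 to 43788757 (score 106), an H3K27Ac peak from 43785850 to 43788116 (score 79.4) and a FAIRE peak from 43786519 to 43787235. The FAIRE height of 96.5 was above that of 76.3% of the genes with a promoter FAIRE peak, whereas the H3K27Ac score was above that of only 1.76%. The same 3 lists without H3K4me3 marked 198 genes (0.985%). The neighbouring trefoil gene TFF2, 15.5 kb away, was one of them, with an H3K27Ac score of 175, an H3K4me1 score of 65.6 and a FAIRE height of 34.3.

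AGR2 (ENSG00000106541) encodes a protein disulphide isomerase of the endoplasmic reticulum that mucin-secreting cells need. It lies on the minus strand of chromosome 7 from 16831435 to 16873057. Its promoter had the weakest H3K4me3 peak of the 7, spanning 16843396 to 16845299 and scoring 171, together with H3K27Ac (16842615 to 16845970, score 487). A FAIRE peak with a height of 62.3 covered the canonical start site at 16844623, one with a height of 50.8 adjoined it downstream, and another FAIRE peak (height 71.4) covered the start site at 16840820. Centred 6.41 kb upstream, an H3K27Ac peak with a score of 945 met an H3K4me1 peak (score 271) and 2 FAIRE peaks. The promoter of the neighbouring gene TSPAN13 had an H3K4me3 peak at 3100 without H3K27Ac.

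**Figure D3:**
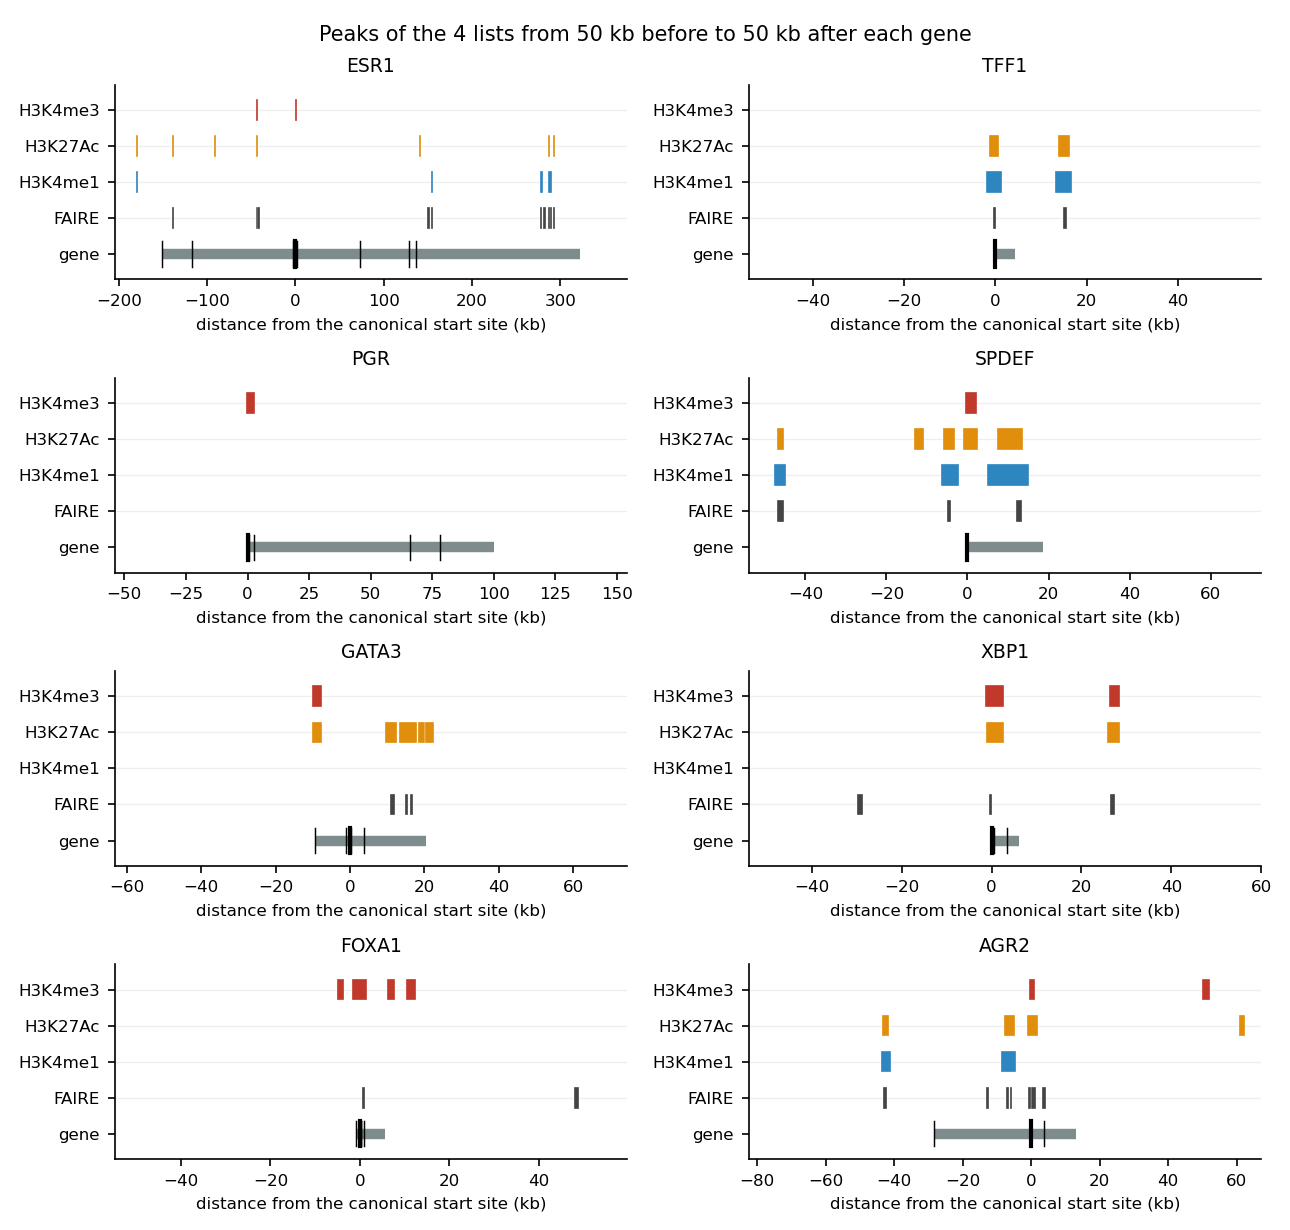
Each panel shows a gene (grey bar, with start sites as ticks and the canonical start site as a thick tick) and the peaks of the 4 lists within 50 kb of it, by distance in kb from the canonical start site in the direction of transcription. Peaks too narrow to see are drawn at a least width. PGR has a single H3K4me3 peak and FOXA1 has 4 without H3K27Ac, whereas SPDEF and AGR2 have flanking peaks of the other lists.

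Together the 8 windows held 79 peaks, 13 of H3K4me3, 25 of H3K27Ac, 11 of H3K4me1 and 30 of FAIRE. Of these, 19 were at a promoter of the gene itself, 33 elsewhere in the gene and 17 outside it. The rest were placed at promoters of other genes only, 7 of a protein-coding gene and 3 of a non-coding gene. Each peak was counted once, so peaks at shared start sites, as at FOXA1, PGR and XBP1, are among the 19. The genes differed widely in density. PGR had 0.5 peaks per 100 kb, and only 8.21% of all genes had fewer. ESR1 had 4.01 per 100 kb (29.0% of genes had fewer). FOXA1, TFF1, XBP1 and GATA3 lay between 5.63 and 6.93, and 40.4% to 49.5% of all genes had fewer. SPDEF and AGR2 had 10.1 and 10.6 per 100 kb, more than 69.0% and 71.3% of all genes. H3K4me1 was missing from the windows of PGR, GATA3, FOXA1 and XBP1, whereas 62.7% of all genes had such a peak.

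The base composition of the promoters is shown by the 150 bases before 6 start sites (GRCh37, in the direction of transcription), with each CpG in capitals. ESR1 and FOXA1 had H3K4me3 without H3K27Ac, XBP1 and SPDEF had both marks, and GATA3 is shown at its unmarked canonical and its marked upstream start site.
ESR1, chr6:152128667-152128816, plus strand: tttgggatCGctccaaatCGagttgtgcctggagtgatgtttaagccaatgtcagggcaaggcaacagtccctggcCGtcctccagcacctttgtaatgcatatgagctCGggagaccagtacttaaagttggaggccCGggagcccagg
FOXA1, chr14:38064455-38064604, minus strand: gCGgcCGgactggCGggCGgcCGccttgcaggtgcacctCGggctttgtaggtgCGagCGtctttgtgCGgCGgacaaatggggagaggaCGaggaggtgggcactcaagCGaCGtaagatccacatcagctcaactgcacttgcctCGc
GATA3 canonical, chr10:8096501-8096650, plus strand: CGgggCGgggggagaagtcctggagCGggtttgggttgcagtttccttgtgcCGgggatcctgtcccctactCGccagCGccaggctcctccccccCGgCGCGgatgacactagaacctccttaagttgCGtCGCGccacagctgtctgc
GATA3 upstream, chr10:8087191-8087340, plus strand: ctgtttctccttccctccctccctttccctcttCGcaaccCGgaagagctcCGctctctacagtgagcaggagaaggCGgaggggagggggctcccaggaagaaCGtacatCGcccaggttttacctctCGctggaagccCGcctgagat
XBP1, chr22:29196558-29196707, minus strand: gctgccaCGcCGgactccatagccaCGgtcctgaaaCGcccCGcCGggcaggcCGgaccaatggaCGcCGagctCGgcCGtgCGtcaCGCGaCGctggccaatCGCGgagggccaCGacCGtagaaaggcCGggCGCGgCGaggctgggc
SPDEF, chr6:34524107-34524256, minus strand: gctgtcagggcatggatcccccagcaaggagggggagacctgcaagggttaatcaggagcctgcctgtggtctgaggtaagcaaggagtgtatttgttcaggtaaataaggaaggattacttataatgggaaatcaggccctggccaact

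These stretches hold 5, 14, 12, 8, 23 and 0 CpG. From 250 bases before to 50 after the start site, the ratio of observed to expected CpG was 0.666 for ESR1, 0.966 for FOXA1, 0.804 for the canonical GATA3 start site and 1.13 for XBP1. It was 0.643 at the upstream GATA3 start site. PGR, TFF1, AGR2 and SPDEF had lower ratios, of 0.485, 0.413, 0.42 and 0.397. With a ratio of at least 0.6 and a GC content of at least 50% as the limits, ESR1, FOXA1, GATA3 and XBP1 were CpG-rich at the canonical start site and the other 4 genes CpG-poor.

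Read at canonical start sites, 86.9% of 13038 CpG-rich promoters had H3K4me3, but only 23.1% of 6780 CpG-poor ones. The CpG-rich promoter of GATA3 had no peak, a state of 12.7% of its class. H3K4me3 without H3K27Ac, as at ESR1 and FOXA1, was found at 7.49% of CpG-rich promoters. Among the CpG-poor genes, SPDEF and AGR2 had both marks, as did 19.1% of their class. TFF1 had H3K27Ac without H3K4me3, as did 3.6%, and PGR H3K4me3 without H3K27Ac, as did 4.01%. No peak at all was found at 71.4% of CpG-poor promoters. The PGR peak reached 2939 bp into the gene and had a CpG ratio of 0.757 over its length.

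**Figure D4:**
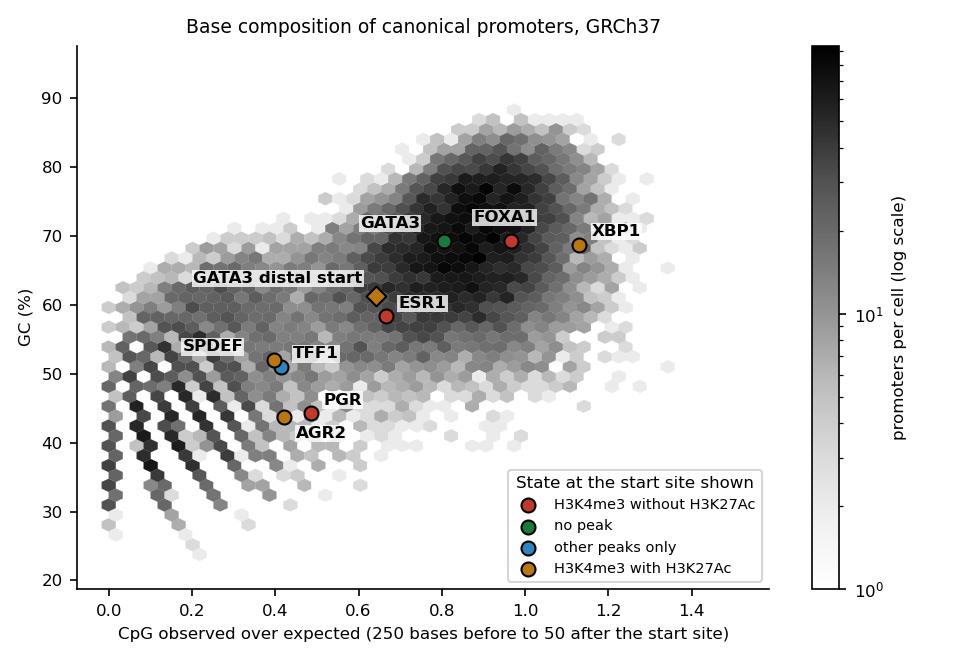
GC content in percent against the ratio of observed to expected CpG, from 250 bases before to 50 after the canonical start site. Grey cells hold all protein-coding genes and coloured points the 8 luminal genes by their state at that start site, with the upstream GATA3 start site as a diamond. ESR1, GATA3, FOXA1 and XBP1 lie among CpG-rich promoters, and PGR, TFF1, SPDEF and AGR2 below a ratio of 0.5.

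Motifs of luminal factors were searched on both strands of the same 300 bases. The oestrogen response element (GGTCA, any 3 bases, then TGACC), the forkhead motif TGTTTAC and the XBP1 motif TGACGTGG had no match at the 8 canonical start sites. They are found at 0.0505%, 2.41% and 0.817% of all promoters of this length. Only exact matches were counted, and motifs this rare are absent from nearly all promoters, so their absence says little about these genes. The GATA motif AGATAA was found at 2 of the 8, AGR2 among them, and at 7.15% of all promoters. At AGR2 it matched once and overlapped no other motif. The 150 bases before the AGR2 start site are shown to give the place of this match, in capitals.
AGR2, chr7:16844624-16844773, minus strand: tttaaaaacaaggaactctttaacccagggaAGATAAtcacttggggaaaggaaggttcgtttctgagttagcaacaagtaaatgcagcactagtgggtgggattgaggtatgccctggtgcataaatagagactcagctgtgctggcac

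The same motifs were searched in 300 bases around the centre of the 30 FAIRE peaks in the 8 windows. The oestrogen response element matched at 0 peaks, the forkhead motif at 2, the GATA motif at 3 and the XBP1 motif at 1. Over all 46529 FAIRE peaks searched, the shares were 0.0193%, 6.04%, 17.2% and 0.451%. With so low a share for the exact oestrogen response element, the lack of a match says little about these genes. The AP-1 motif (TGA, any base, then TCA), added after the data were seen, matched at 13 of the 30 peaks and at 39.2% of all FAIRE peaks.

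Other genes of the luminal lineage were read in the same way. Of 35 companion luminal genes, 28 (80.0%) had promoter H3K4me3 and 21 (60.0%) promoter H3K27Ac, beside 67.3% and 63.5% of all genes. Both marks were present at 20 (57.1%), beside 61.3% of all genes. H3K4me3 without H3K27Ac was found at 8 (22.9%), beside 6.05%. The 6 silent promoters (17.1%, beside 29.3% of all genes) were those of ELF3, TFAP2B, TFF3, AGR3, ANKRD30A and ELF5. TFF3 and AGR3 are the neighbours and relatives of TFF1 and AGR2, which were marked. All 4 lists were present at KRT8, EPCAM, MLPH, CA12, SCUBE2 and PRLR. Of all genes, 13.1% had all 4. With the canonical start site alone, SCUBE2 and PRLR had H3K4me3 without H3K27Ac.

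Of 23 basal and mesenchymal genes, 18 (78.3%) had promoter H3K4me3 and 17 (73.9%) both H3K4me3 and H3K27Ac, beside 67.3% and 61.3% of all genes. A single gene (4.35%, beside 6.05%), CDH3, named here after its values were seen, had H3K4me3 without H3K27Ac. All 4 lists marked 8 promoters (34.8%, beside 13.1%), among them those of VIM, CD44, AXL, CAV1, EGFR and ZEB1. The 5 silent promoters (21.7%, beside 29.3% of all genes) were those of TWIST1, CDH2, KRT5, KRT14 and KRT17. The promoter H3K27Ac score reached 3100 or more at 10 of the 17 acetylated basal and mesenchymal promoters, at 6 of the 21 companion luminal ones and at 0 of the 5 luminal lineage ones, beside 15.8% of all acetylated promoters.

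**Figure D5:**
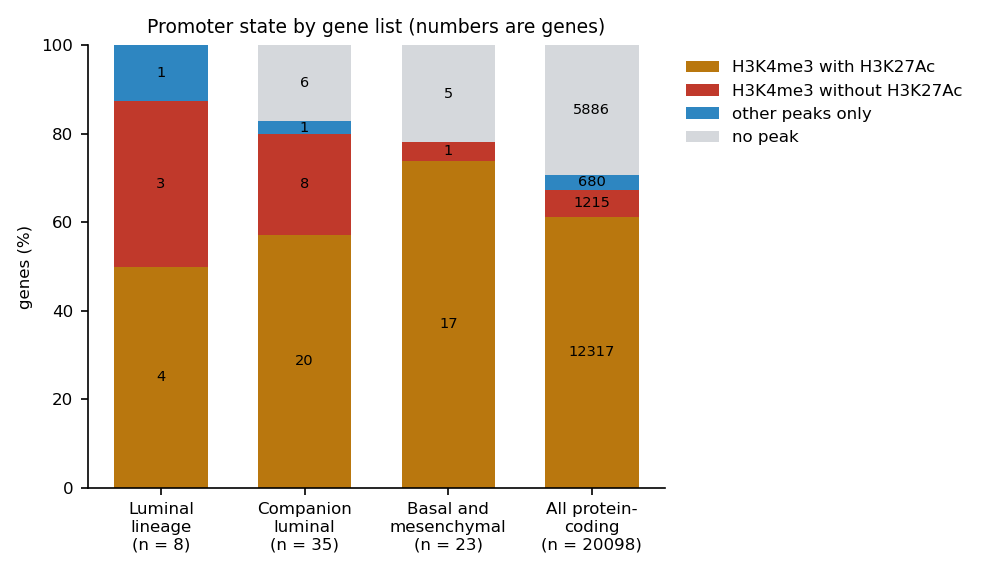
Bars give the percent of genes of each list in 4 promoter states, with the number of genes written in each part. H3K4me3 without H3K27Ac takes 3 of 8 luminal lineage genes and 8 of 35 companion luminal genes, against 1 of 23 basal and mesenchymal genes and 6.05% of all protein-coding genes.

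The label of the line was checked against markers. The mesenchymal genes VIM, CD44, AXL, CAV1, ZEB1 and FN1 all had H3K4me3 at 3100 together with H3K27Ac, and 5 of the 6 had all 4 lists. Of all genes, 61.3% had both marks and 13.1% all 4 lists. An H3K4me3 score of 3100 or more was reached by 81.8% of the genes with promoter H3K4me3. By contrast, the mesenchymal genes TWIST1 and CDH2 of the list above were silent, as were 29.3% of all genes. The basal keratins KRT5 and KRT14 were silent, and TP63 had weak H3K4me3 (score 203) and H3K27Ac (score 315). The white blood cell gene PTPRC was silent. Of the 7 luminal markers, 4 had both marks, KRT8, KRT18 and EPCAM with H3K4me3 at 3100 and GATA3 below it, and ESR1, PGR and FOXA1 had no H3K27Ac. Transcripts and repressive marks at the luminal genes were not analysed here.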

How the data were processed

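The data were 4 peak lists from MDAMB231 cells. The authors used BWA to align reads to hg19 (GRCh37), filtered out duplicate and poorly mapped reads, and combined replicates. They called peaks with MACS for the histone marks, with input as control, and with FindPeaks for FAIRE. A histone peak's deposited score is its p-value as log10, multiplied by minus 10. For FAIRE, the deposited value is the height of the signal in the peak.

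Starts were read as counted from 0, and 5 repeated FAIRE rows were dropped. Gene bounds and start sites came from GENCODE on GRCh37, and sequences from the GRCh37 genome with pyfaidx 0.9.0.4. Peaks were joined to genes in pandas 2.3.3 (numpy 2.4.6). On 3000 simulated intervals this gave 0 differences from bedtools 2.31.1. Windows were the gene bounds widened by 50 kb. Genes named are all 8 luminal genes, up to 6 silent and 6 fully marked genes of each list, markers, and neighbours with a counted peak. Members and lists were chosen with earlier results of these data known, and CpG classes and score classes after seeing the values. PECAM1, a fixed endothelial marker, had no entry in the annotation and was not analysed here. A gene name and a sequence are not reported here. No test was run, because each assay has a single list.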

Additional observations from a re-analysis of the deposited data

How the results depend on the processing

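Promoters were read again with start sites widened by 500 bp or 2 kb, with the canonical start site only, with start sites of protein-coding transcripts only, with the centre of the peak in the window, and with stricter peaks (scores of 100 or more, FAIRE heights at or above the median of 61.1). Windows were read without widening, with 20 kb or 100 kb, and without peaks at other protein-coding promoters. In 46 of 50 values the count stayed within 1.5 times the main one. With the canonical start site only, the number of silent promoters rose from 0 to 1, which was GATA3. With stricter peaks, the number of promoters with a FAIRE peak fell from 4 to 2, TFF1 and AGR2. The number of peaks near the 8 genes was 132 with bounds widened by 100 kb and 49 with stricter peaks, against 79, as a wider window and fewer peaks entail. ESR1, PGR and FOXA1 were the genes with H3K4me3 and no H3K27Ac under every alternative. For this count, in these genes and in the companion and the basal and mesenchymal lists, the alternatives were added after seeing the data. TFF1 lost its H3K27Ac peak with stricter peaks.

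No paired analysis was possible because no result comes from a test across samples. The lists carry no replicate error, and the absence of a peak means only that none passed the threshold at a depth not known from the lists. Genes with more start sites have more chances of a peak. A peak at shared start sites, as at FOXA1, PGR and XBP1, cannot be assigned to a gene.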
